A study of Mus musculus with 67 samples.

Results

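The 34 genes of glycolysis, the pentose phosphate pathway and pyruvate entry described here were chosen by symbol, not by level: all 34 were found among the 24421 genes of each of the 3 deposited tables. They fall into 8 roles. The glucose transporters Slc2a1 and Slc2a3 and the hexokinases Hk1, Hk2 and Hk3 bring glucose in and trap it as glucose 6-phosphate. Gpi1, the phosphofructokinases Pfkl, Pfkm and Pfkp, the aldolases Aldoa and Aldoc, and Tpi1 carry hexose phosphate to triose phosphate. Pfkfb3 and Pfkfb4 set the level of fructose 2,6-bisphosphate, the activator of phosphofructokinase, and Fbp1 runs that step backwards in gluconeogenesis. Gapdh, Pgk1, Pgam1, the enolases Eno1 and Eno2, and Pkm lead to pyruvate. The lactate dehydrogenase subunits Ldha and Ldhb interconvert pyruvate and lactate, and Slc16a3 (MCT4) exports lactate. G6pdx, Pgls and Pgd are the oxidative branch of the pentose phosphate pathway, the source of NADPH, and Rpia, Rpe, Tkt and Taldo1 its non-oxidative branch. Pdha1 and Pdhb belong to pyruvate dehydrogenase, which Pdk1 inhibits.

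Glycolysis turns glucose into pyruvate and yields ATP without oxygen. Myeloid cells lean on it when they are activated, and phagocytes also draw on the pentose phosphate pathway, whose NADPH feeds the oxidative burst. Many of these enzymes come as isozymes with different kinetics, and the lactate dehydrogenase made of Ldha subunits is classed as favouring lactate formation, the one made of Ldhb subunits as favouring pyruvate.

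The study followed mouse monocytes from marrow progenitors to blood and spleen by RNA sequencing of sorted cells, in 67 libraries and 28 groups. Ly6C+ (classical) monocytes arise in marrow from the MDP, the monocyte and dendritic cell progenitor, and the cMoP, the common monocyte progenitor, and are known to give rise through Ly6Cint cells to Ly6C- (patrolling) monocytes. From C57BL/6 mice of 7 weeks came marrow MDP (4 libraries), cMoP (4), Ly6C+ (3) and Ly6C- monocytes (4), and blood Ly6C+ (4), Ly6Cint (3) and Ly6C- monocytes (3). From C57BL/6 mice of 8 weeks came 2 libraries each of marrow MDP, cMoP and Ly6C+ monocytes. From 16-week mice of mixed background came wild-type (wt) blood Ly6C+, Ly6Cint and Ly6C- monocytes and knockout (ko) blood Ly6C+ and Ly6Cint monocytes, 2 libraries each. No knockout Ly6C- group is among the 67 libraries. The sample labels say only ko, and the gene, Cebpb, which encodes the transcription factor C/EBPb, is taken from the title of the series; whether the deletion is limited to some cells is not given in the sources used here. In the transfer experiment, C57BL/6 marrow Ly6C+ monocytes (8 weeks) were sequenced before transfer. They were sequenced again as grafts from blood and spleen after 24, 36 and 48 h. The hosts' own blood and spleen Ly6C+, Ly6Cint and Ly6C- monocytes are labelled 8 weeks and 24 h. Each group had 2 libraries. How grafted cells were told from host cells is not given in the sources used here. The labels do not say whether libraries of a group came from separate animals, so p-values measure the spread between these libraries, which may be technical.

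The 7-week and knockout tables (the latter with the 8-week marrow) are given here in RPM, reads per 1000000 reads of the library. Their depth was 577690 to 3643327 and 942751 to 5478761 reads in the listed genes per library, so that 3 reads correspond to 0.58 to 3.34 and 0.439 to 2.50 RPM. The transfer table gives values per 1000000 of its listed total, with unknown depth. Each comparison used limma on log2(value + 1) within a table, fitted over all genes tested, and a gene was called at an adjusted p (Benjamini-Hochberg) under 0.05; log2 ratios are on that scale, which understates the change of low genes. A filter at 2 RPM left 33 members for testing in the 7-week and knockout tables and 32 in the transfer table. Eno2 failed it in all 3 and Fbp1 in the transfer table. Ly6c2, the antigen behind the sort, followed the labels, with 2709, 273 and 30.05 RPM on average in 7-week blood Ly6C+, Ly6Cint and Ly6C- cells, and Csf1r, the receptor CD115 used for enrichment, was at 193 RPM or more in every library of the 7-week and knockout tables. In bulk samples, fewer cells of a type and less RNA per cell cannot be told apart.

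The promoters of 4 genes are shown first, because the genes behind them carry the main findings below: Slc16a3 and Pfkfb4 were higher in monocytes than in progenitors, Ldha was lower, and Ldhb rose and fell. Each line is the 250 bases before a RefSeq transcription start on GRCm38.p6, 5' to 3' on the gene's strand. Capitals mark ACGTG, read on both strands. ACGTG is a form of the core of the hypoxia response element, whose other form, GCGTG, was not marked or counted. They lie at chr11:120948817-120949066 (plus strand) for Slc16a3, chr9:108991652-108991901 (plus) for Pfkfb4, chr7:46845554-46845803 (plus) for the upstream and chr7:46846832-46847081 (plus) for the second of the 2 starts of Ldha, and chr6:142507958-142508207 (minus) for Ldhb.
Slc16a3: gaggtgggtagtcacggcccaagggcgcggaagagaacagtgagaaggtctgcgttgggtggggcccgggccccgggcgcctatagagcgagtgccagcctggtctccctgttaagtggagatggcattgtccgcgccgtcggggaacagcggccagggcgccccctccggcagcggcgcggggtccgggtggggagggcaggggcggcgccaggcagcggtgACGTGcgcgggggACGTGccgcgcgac
Pfkfb4: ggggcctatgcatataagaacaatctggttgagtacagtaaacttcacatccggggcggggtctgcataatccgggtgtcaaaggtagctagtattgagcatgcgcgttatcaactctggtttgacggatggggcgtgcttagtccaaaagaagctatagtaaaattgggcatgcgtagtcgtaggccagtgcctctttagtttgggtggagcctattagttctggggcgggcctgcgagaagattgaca
Ldha upstream: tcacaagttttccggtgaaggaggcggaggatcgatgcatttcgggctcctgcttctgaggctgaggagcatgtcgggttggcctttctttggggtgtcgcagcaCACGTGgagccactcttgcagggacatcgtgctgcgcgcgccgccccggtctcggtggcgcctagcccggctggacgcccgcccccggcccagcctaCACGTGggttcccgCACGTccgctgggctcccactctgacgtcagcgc
Ldha second: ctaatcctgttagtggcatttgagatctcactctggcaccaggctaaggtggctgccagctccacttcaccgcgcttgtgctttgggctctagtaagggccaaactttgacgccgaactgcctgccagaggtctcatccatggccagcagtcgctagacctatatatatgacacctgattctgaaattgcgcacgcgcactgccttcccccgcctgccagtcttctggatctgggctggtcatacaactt
Ldhb: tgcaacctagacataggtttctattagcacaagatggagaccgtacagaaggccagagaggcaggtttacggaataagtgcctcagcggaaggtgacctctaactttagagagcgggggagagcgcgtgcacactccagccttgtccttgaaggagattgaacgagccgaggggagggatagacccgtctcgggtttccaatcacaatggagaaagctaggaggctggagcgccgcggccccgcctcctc

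Slc16a3 holds ACGTG 27 and 14 bases before the start. The upstream start of Ldha holds it at 145, 144, 48, 47 and 34 bases, where neighbouring positions are the 2 strands of the palindrome CACGTG, the E-box bound by Myc and its partners. The second Ldha start, Pfkfb4 and Ldhb hold neither, but each holds GCGTG when read on both strands. The bases that follow the second Ldha start were found near the 5' end of a GENCODE M21 transcript of the gene and those that follow the upstream start were not, so the matches of Ldha rest on a start not matched there. Of the 33 members matched in the RefSeq table (all but Slc2a3), 12 (Aldoa, Hk2, Hk3, Ldha, Pdhb, Pfkfb3, Pfkm, Pgam1, Pgk1, Pkm, Slc16a3 and Slc2a1) hold ACGTG in at least 1 such window, against 18.49% of all 27025 genes. By start, it was 15 of 47 starts of members and 16.57% of all. CACGTG is in 3 members (6.86% of all genes), TTGCNNAA, a common C/EBP site, in 5 (10.84%), and GGAAGT, an Ets site, in 9 (22.23%). A match is a description of these letters and not of binding.

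Per kilobase of transcript, the scale on which genes can be compared, the order of levels was steep. In cMoP the mean levels were 591 RPM per kilobase for Taldo1, 493 for Ldha, 446 for Pgls, 324 for Aldoa and 262 for Pkm, whereas Slc2a1 was at 3.00, Slc2a3 at 1.83 and Aldoc at 0.378. Taldo1, the transaldolase of the non-oxidative branch, was first among the 34 in cMoP, marrow Ly6C+ cells and blood Ly6C- cells. In MDP the first was Pgls at 637 RPM per kilobase. Summed over all 34 members, 7-week cMoP held 6501 ± 176 RPM (SD, n = 4), MDP 4857 ± 284 (n = 4), marrow Ly6C+ cells 5067 ± 427 (n = 3), blood Ly6C+ cells 5174 ± 965 (n = 4), blood Ly6Cint cells 3185 ± 247 (n = 3), blood Ly6C- cells 3865 ± 733 (n = 3) and marrow Ly6C- cells 3020 ± 347 (n = 4). The Ly6C+ groups of marrow and blood were within their spread of each other, and the libraries of Ly6Cint (3016 to 3468) and both Ly6C- groups (3108 to 4572 in blood, 2672 to 3437 in marrow) overlap.

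**Figure D1:**
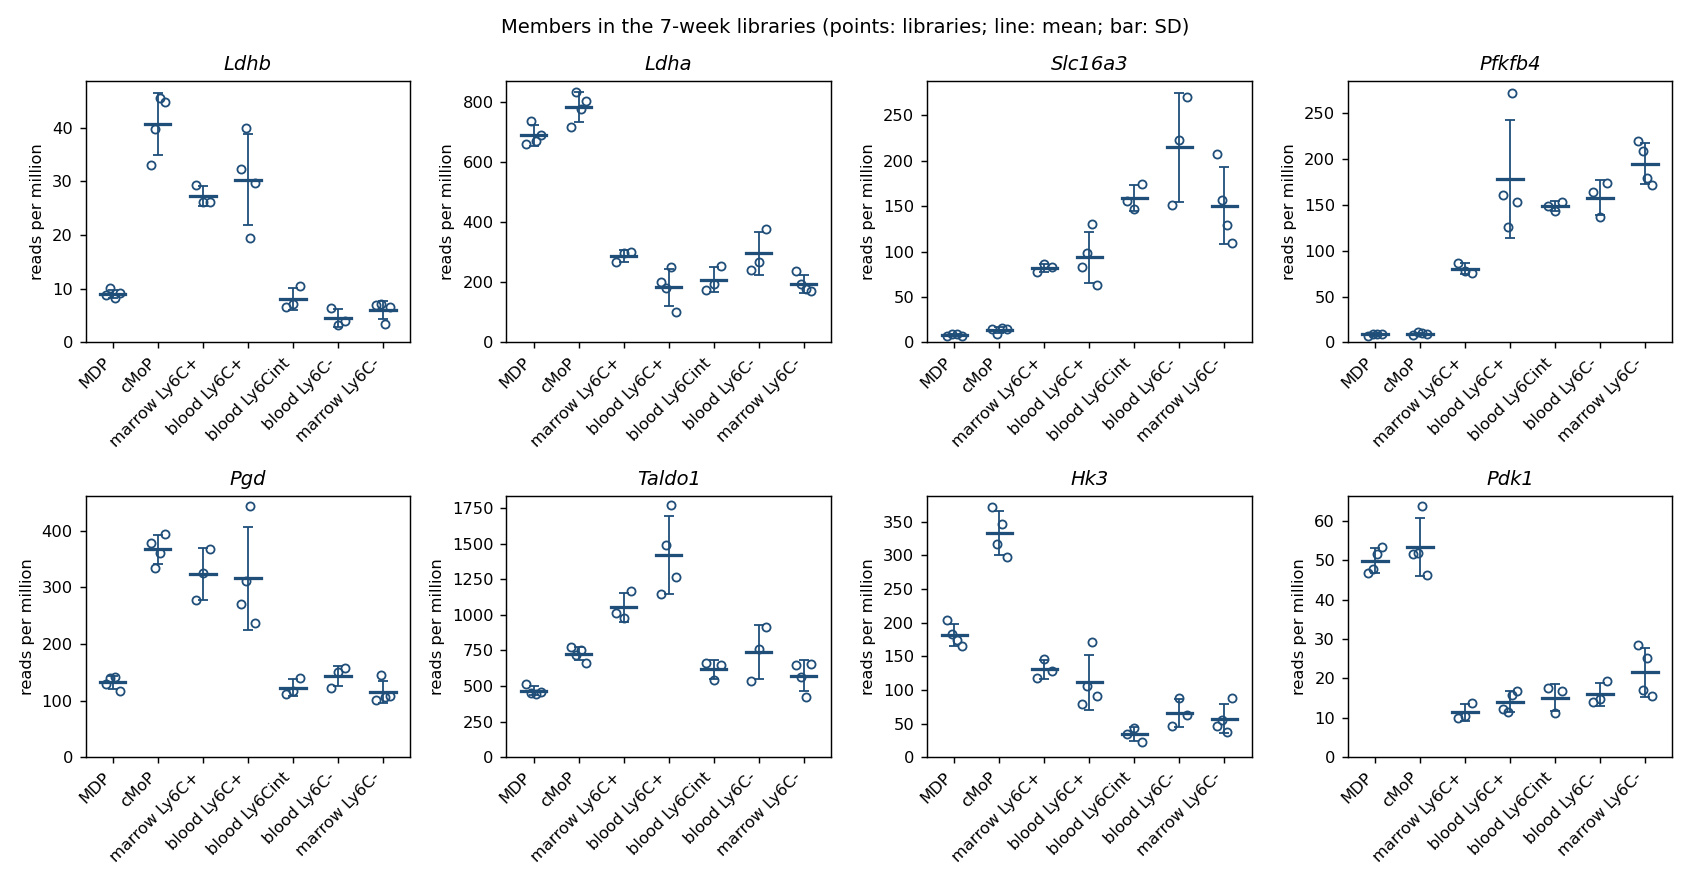
RPM (y axes) of 8 members in the 7 groups of 7-week mice (x axes), with 1 point per library, a line at the mean and a bar for the SD. Ldhb is high from cMoP to blood Ly6C+ cells (19.4 to 45.5) and at most 10.4 elsewhere, while Slc16a3 is at most 16.1 in the 2 progenitor groups and at least 63.6 in every monocyte library.

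Several members share sequence with annotated transcripts of other genes, read on both strands. How reads were divided between them is not given in the sources used here. Such genes need not be copies: for Gpi1 they were 122, of which 2 were pseudogenes. Copies outside annotated transcripts were not looked for. Of the 50-base windows of the transcript, the share also found in transcripts of other genes was 82.49% for Gapdh (222 genes, 213 of them pseudogenes), 72.19% for Eno1, 67.96% for Pgk1, 41.48% for Pgam1, 34.41% for Pkm, 30.26% for Pdhb, 27.01% for Ldhb, 25.26% for Gpi1 and 19.10% for Ldha. It was above 10% for 15 members, above 50% for 3 and at 0 for 13, namely Slc16a3, Pfkfb4, Fbp1, Pdk1, Pgd, Pgls, Tkt, Hk2, Hk3, Slc2a3, Pfkm, Aldoc and Rpia. Levels of the first genes in this list are therefore uncertain: Gapdh, an abundant enzyme in most cells, stood at a mean of 10.4 RPM in 7-week cMoP, and Pgam1 at 78.7 RPM there but 4.65 RPM in 8-week cMoP. Mean Pgk1 was 47.8 RPM in 7-week and 3.72 RPM in 8-week cMoP, and 37.8 and 4.95 RPM in marrow Ly6C+ cells. The part of shared sequence in any result was not tested.

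From MDP to cMoP, the members moved upwards in the 7-week marrow: 10 of 33 were called higher, where 5.20% of all genes tested were, and 1 lower, where 4.05% were. The median log2 ratio of the members was 0.40, that of all genes -0.01. The oxidative pentose phosphate genes Pgd and G6pdx led together with Ldhb. Ldhb was at 8.86, 10.1, 8.27 and 9.19 RPM in the 4 MDP libraries and 33.02, 39.7, 45.5 and 44.8 RPM in the 4 cMoP libraries (log2 ratio 2.04, SE 0.26, adjusted p = 9.95e-07). No library of the one overlaps the other, and the means differ 4.48-fold. Pgd, 6-phosphogluconate dehydrogenase, stood at 129.99, 140.1, 141 and 117 RPM in MDP and 379, 334, 361 and 394 RPM in cMoP (log2 ratio 1.47, SE 0.16, adjusted p = 9.17e-08). G6pdx, the glucose 6-phosphate dehydrogenase that opens the branch, went from 129.8, 132, 99.9 and 120.1 to 268, 307, 314 and 274 RPM (log2 ratio 1.27, SE 0.16, adjusted p = 1.46e-06). Every cMoP library was above every MDP library for both. Pgls, the lactonase between these enzymes, was lower instead, from 596, 594, 607 and 477 to 387, 389, 384 and 432 RPM (log2 ratio -0.51, SE 0.14, adjusted p = 0.0202).

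Further along the pathway, Hk3, which led the hexokinases per kilobase here, was 1.83-fold higher in cMoP, with 204, 183, 174 and 165 RPM in MDP and 371, 317, 347 and 297 RPM in cMoP (log2 ratio 0.87, SE 0.23, adjusted p = 0.0127). Aldoa, the main aldolase, was 1.79-fold higher, with 299, 262, 239 and 256 RPM in MDP against 528, 456, 416 and 493 RPM in cMoP (log2 ratio 0.84, SE 0.17, adjusted p = 0.00102). The lactate exporter Slc16a3 rose from a low level, 6.697, 9.29, 9.13 and 7.301 to 14.3, 9.56, 16.1 and 14.8 RPM (log2 ratio 0.68, SE 0.22, adjusted p = 0.0448). Groups did not overlap for any of these 3 genes. Taldo1 (log2 ratio 0.64), Pfkp (0.60), Gpi1 (0.54) and Pkm (0.48) were also called higher. The calls of Ldhb, Pgd, G6pdx, Hk3, Aldoa and Taldo1 held in every alternative run. Those of the other 5 were lost without 1 library or another: Pfkp without MDP replicate 2 (0.58) or 4 (0.58) or cMoP replicate 3 (0.53), Gpi1 without MDP replicate 2, 3 or 4 or cMoP replicate 1 or 3 (0.51 to 0.54), Pgls without any but MDP or cMoP replicate 4 (-0.47 to -0.50), Slc16a3 without any but cMoP replicate 2 (0.60 to 0.74) and Pkm without any (0.41 to 0.52).

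In the separate 8-week libraries, 5 members were called higher in cMoP than in MDP (1.83% of all genes) and 1 lower (3.02%), with medians of 0.11 for members and -0.18 for all genes. Of the 10 that rose at 7 weeks all 10 had the same sign and 4, Ldhb, Pgd, G6pdx and Aldoa, were called again. How often this held over all genes called at 7 weeks was not counted. Ldhb stood at 7.44 and 11.7 RPM in MDP and 32.4 and 34.3 RPM in cMoP (log2 ratio 1.73, SE 0.47, adjusted p = 0.0454). G6pdx went from 245 and 197 to 437 and 413 RPM (log2 ratio 0.95, SE 0.17, adjusted p = 0.0041) and Pgd from 197 and 186 to 409 and 300.4 RPM (log2 ratio 0.87, SE 0.23, adjusted p = 0.041). Aldoa was at 467 and 488 RPM in MDP and 960.3 and 747 RPM in cMoP (log2 ratio 0.83, SE 0.19, adjusted p = 0.0204). Eno1, at 23.96 and 19.9 RPM in MDP and 52.5 and 65.6 RPM in cMoP, was also called (log2 ratio 1.38; at 7 weeks 0.27, adjusted p = 0.823), as was Pfkm, the muscle phosphofructokinase, which fell from 19.002 and 19.5 to 4.38 and 6.24 RPM (-1.70); whether the 2 ages differ was not tested. The limit on shared reads given above applies to Eno1. With 2 libraries a group, no call held without every single library. Ldhb was lost without any 1 of the 4 (1.43 to 2.03), Aldoa (0.65 to 0.86) and Pgd (0.64 to 0.91) without any but cMoP replicate II, Eno1 (1.23 to 1.51) without any but cMoP replicate I, Pfkm (-1.48 to -1.72) without any but cMoP replicate II, and G6pdx without MDP replicate II (0.79). Of 10 neutrophil genes 9 passed the filter and 0 were called between these groups, but they summed to 2175 to 2937 RPM in the 8-week MDP and 1850 to 2636 in the cMoP libraries, against 39.4 to 89.0 in the 7-week ones; their part in these values was not tested. By edgeR 5 members were higher and 0 lower.

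From cMoP to marrow Ly6C+ monocytes, 13 of 33 members fell and 4 rose at 7 weeks, where 22.4% and 15.3% of all genes did; the members' median was -0.45 and that of all genes -0.17. Fbp1, the pyruvate dehydrogenase kinase Pdk1, Pfkl, Ldha and Hk3 fell furthest, while Pfkfb4 and Slc16a3 rose several-fold; of the other hexokinases neither Hk1 (log2 ratio -0.40, adjusted p = 0.18) nor Hk2 (0.15, adjusted p = 0.725) was called. Pfkfb4, the kinase and phosphatase that sets fructose 2,6-bisphosphate, stood at 8.26, 11.01, 10.001 and 8.79 RPM in cMoP and 87.2, 78.4 and 75.4 RPM in Ly6C+ cells (log2 ratio 2.96, SE 0.20, adjusted p = 5.54e-13). Slc16a3 went from 14.3, 9.56, 16.1 and 14.8 to 77.2, 86.3 and 82.6 RPM (log2 ratio 2.52, SE 0.23, adjusted p = 7.79e-10). The lowest Ly6C+ library was several times the highest cMoP library for both, and the means differed 8.45-fold and 5.995-fold. G6pdx (log2 ratio 0.53) and Taldo1 (0.53) rose by less.

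Among the falls, Fbp1, fructose 1,6-bisphosphatase, went from 18.1, 16.2, 14.9 and 15.9 RPM in cMoP to 0, 0.608 and 0 RPM, that is from 253 reads to 1 read over the groups. Scaled by depth the ratio was 71.2, with an exact 95% interval of 12.7 to 2822 that covers counting error only (log2 ratio -3.88, SE 0.41, adjusted p = 1e-08). MDP held 8.27, 7.35, 6.56 and 7.84 RPM. Outside MDP and cMoP, only blood Ly6C+ replicate 4 reached the filter of 2 RPM (2.15). Fbp1 was therefore tested only because it was high in the progenitors. Pdk1, the kinase that switches pyruvate dehydrogenase off, fell from 51.5, 51.9, 63.6 and 46.1 to 10.04, 10.3 and 13.8 RPM (log2 ratio -2.14, SE 0.24, adjusted p = 2.17e-08). Both pyruvate dehydrogenase subunits were lower too, Pdha1 by 1.63-fold and Pdhb by 1.86-fold, so all 3 members of this role fell together. Ldha, the main lactate dehydrogenase subunit, fell from 717, 833, 776 and 805 to 266, 299 and 302 RPM (log2 ratio -1.44, SE 0.21, adjusted p = 2.11e-06). Hk3 went from 371, 317, 347 and 297 to 118, 146 and 128 RPM (log2 ratio -1.34, SE 0.25, adjusted p = 0.000102). Pfkl, the liver-type phosphofructokinase, had 47.9, 31.9, 42.7 and 42.6 RPM in cMoP and 16.98, 20.7 and 7.97 RPM in Ly6C+ cells (log2 ratio -1.46, SE 0.29, adjusted p = 0.000205). In none of these genes did the groups overlap. Gapdh (-1.33), Pgam1 (-0.98), Gpi1 (-0.92), Pgls (-0.91), Tpi1 (-0.84) and Tkt (-0.78) made up the 13. The limit on shared reads given above applies to Gapdh and Pgam1, and Gapdh was at 1.54 RPM, under 3 reads, in marrow Ly6C+ replicate 1. Just outside the call, Rpia had a log2 ratio of -0.45, adjusted p = 0.0975, and Ldhb of -0.56, adjusted p = 0.117. Without marrow Ly6C+ replicate 1 the calls of Tkt (-0.59), Pgam1 (-0.90) and Gapdh (-0.92) were lost, and without replicate 4 those of G6pdx (0.45) and Taldo1 (0.45); the other 12 held in every alternative.

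In the separate 8-week libraries of the same step, all 4 rises were called again, and all 13 falls had the same sign, 8 of them called (Fbp1, Pdk1, Hk3, Pfkl, Ldha, Pgls, Tkt and Tpi1). The same shares over all genes called at 7 weeks were not counted. In all, 5 members were higher (16.3% of all genes) and 11 lower (20.5%), with medians of -0.35 and -0.10. Pfkfb4 went from 24.1 and 30.6 to 121 and 132 RPM (log2 ratio 2.18, SE 0.21, adjusted p = 2.63e-06) and Slc16a3 from 19.3 and 19.98 to 108 and 63.3 RPM (log2 ratio 2.02, SE 0.27, adjusted p = 5.4e-05). Fbp1 had 42 reads in the 2 cMoP libraries and 0 in the 2 Ly6C+ libraries. With 3 reads put in place of that 0, the difference was 10.2-fold, with no counting error allowed for the 42 reads. Pdk1 fell from 54.3 and 51.2 to 6.75 and 2.498 RPM (log2 ratio -3.37, SE 0.38, adjusted p = 1.05e-05). Slc2a1, the broadly expressed glucose transporter, was called higher here, with 19.7 and 9.37 RPM in cMoP and 25.8 and 29.98 RPM in Ly6C+ cells (log2 ratio 0.98). Slc2a3, the high-affinity transporter, was lower, from 10.1 and 8.74 RPM to 5.52 and 0 RPM (-2.02). Erythroid genes summed to 3403 to 4617 RPM in the 8-week Ly6C+ libraries against 278 to 533 in cMoP (3 of 9 tested higher, 3 lower), and neutrophil genes to 264 to 341 against 1850 to 2636 (1 of 9 higher, 7 lower); their part was not tested, and the 7-week values above were measured with erythroid sums of 3.09 to 180 and neutrophil sums of 71.2 to 144. Calls lost without 1 library were those of Slc2a1 (0.48 without cMoP replicate II, 1.08 and 0.87 without Ly6C+ replicate I or II), Slc2a3 (-0.67 without Ly6C+ replicate II, -1.93 and -2.12 without cMoP replicate I or II), Taldo1 (0.37 without cMoP replicate II, 0.65 and 0.80 without Ly6C+ replicate I or II), Pfkfb3 (-0.61 without cMoP replicate II, -0.53 without Ly6C+ replicate II), Tkt (-0.70 without cMoP replicate I, -0.76 without Ly6C+ replicate II), Hk1 (-0.60 and -0.64, same libraries), Tpi1 (-0.50 and -0.72 without cMoP replicate I or II, -0.43 without Ly6C+ replicate II) and G6pdx (0.52 without either replicate II).

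**Figure D2:**
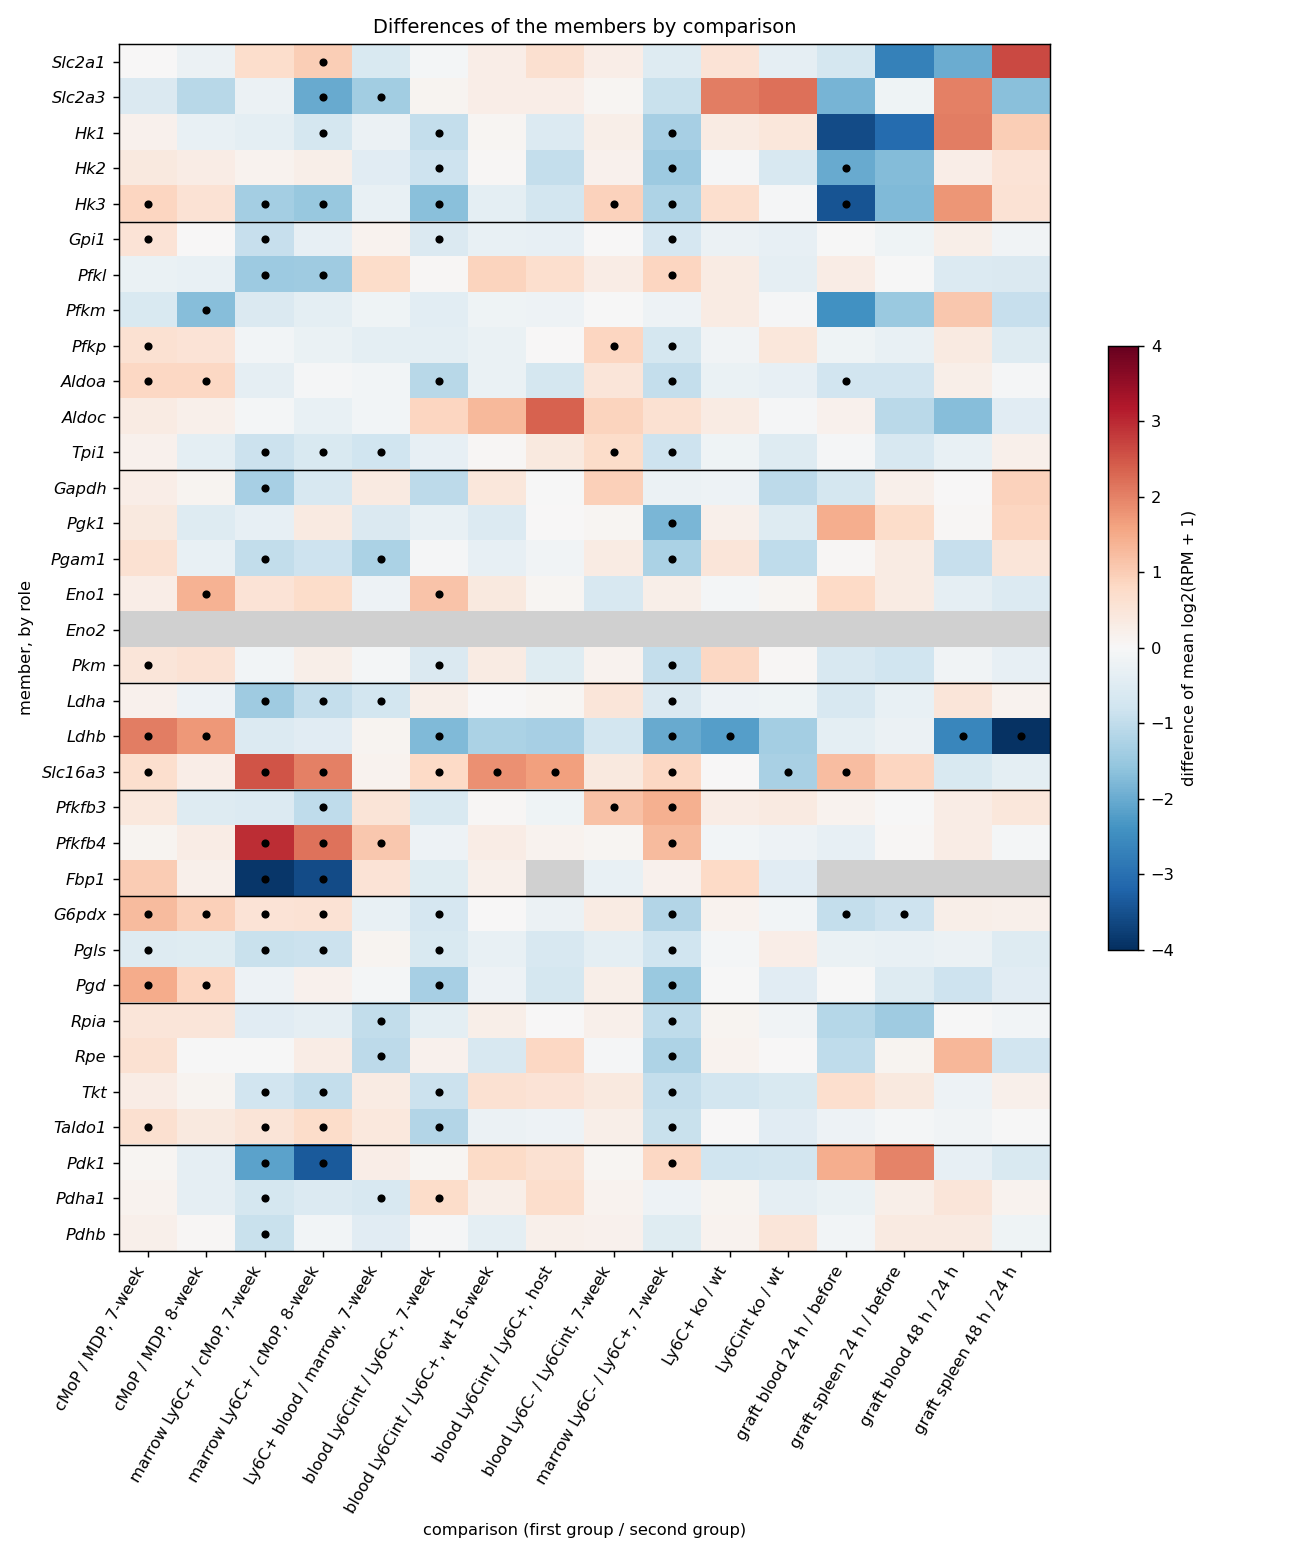
Differences of mean log2(value + 1) for the 34 members (rows, ordered by role with lines between roles) in 16 comparisons (columns), in red where the first group is higher and blue where it is lower, on a scale from -4 to 4; dots mark calls at an adjusted p under 0.05 and grey cells were not tested. Pfkfb4 and Slc16a3 are red and Fbp1 and Pdk1 blue from cMoP to marrow Ly6C+ cells at both ages, and Slc16a3 carries dots in 3 comparisons of blood Ly6Cint with Ly6C+ cells.

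Between marrow and blood Ly6C+ monocytes at 7 weeks, the non-oxidative pentose phosphate enzymes Rpia and Rpe fell and Pfkfb4 rose again. The other enzymes of that branch, Tkt and Taldo1, were not called. Tkt was at 368 RPM on average in marrow and 477 RPM in blood, and Taldo1 at 1052 and 1419 RPM. Of 33 members 7 were lower in blood (18.7% of all genes) and 1 higher (7.32%), with medians of -0.17 and -0.19, so the share lower was close to that of all genes. Pfkfb4 stood at 87.2, 78.4 and 75.4 RPM in marrow and 161, 126, 272 and 154 RPM in blood (log2 ratio 1.08, SE 0.20, adjusted p = 0.000109). Rpia, which makes ribose 5-phosphate for nucleotide synthesis, went from 106, 95.5 and 97.1 to 66.3, 49.9, 43.1 and 41.7 RPM (log2 ratio -0.99, SE 0.21, adjusted p = 0.000779), and Rpe, its partner epimerase, from 55.6, 49.9 and 57.99 to 29.3, 37.6, 22.9 and 17.6 RPM (log2 ratio -1.04, SE 0.24, adjusted p = 0.00143). Slc2a3 (-1.40), Pgam1 (-1.25), Tpi1 (-0.80), Ldha (-0.72) and Pdha1 (-0.65) were the other falls, with the limit on shared reads given above for Pgam1. The call of Slc2a3 was lost without marrow Ly6C+ replicate 3 (-1.22). In the 10 alternatives other than leaving out a library, Pdha1 lost its call in 2 and Slc2a3 and Ldha in 1 each. The other 5 calls held in every alternative. All 20 genes of the cell-cycle list fell over the same step, with a median log2 ratio of -4.20; their part in the members' falls was not tested. Quantile scaling, which moves the median of all genes from -0.19 to 0.06, and edgeR both gave 4 higher and 6 lower members here, and scaling to the listed genes 3 and 7.

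From blood Ly6C+ to Ly6Cint monocytes at 7 weeks, 12 of 33 members fell (19.2% of all genes) and 3 rose (7.95%), with medians of -0.38 and -0.21. Pgd, Hk1, Hk3, Taldo1 and Ldhb were among the falls, with G6pdx, Pgls and Hk2, whose calls were lost with quantile scaling and with edgeR, and Slc16a3, Eno1 and Pdha1 were the rises. Ldhb dropped from 32.4, 39.95, 19.4 and 29.7 RPM in Ly6C+ to 6.68, 7.08 and 10.4 RPM in Ly6Cint cells (log2 ratio -1.77, SE 0.28, adjusted p = 3.9e-05). Hk3 went from 78.4, 105, 171 and 90.2 to 35.1, 43.5 and 22.97 RPM (log2 ratio -1.67, SE 0.25, adjusted p = 2.37e-05). The 2 groups do not overlap in either gene. Pgd fell from 270.2, 312, 445 and 237 to 111, 117 and 139.9 RPM (log2 ratio -1.32, SE 0.17, adjusted p = 3.49e-06) and Taldo1 from 1147, 1494, 1769 and 1267 to 660.3, 542 and 649 RPM (log2 ratio -1.19, SE 0.17, adjusted p = 1.47e-05). Aldoa had 249.9, 338, 413 and 366 RPM in Ly6C+ and 147, 145 and 174 RPM in Ly6Cint cells (log2 ratio -1.12, SE 0.19, adjusted p = 8.39e-05). Again no library of the lower group reached the higher one. Hk1, a hexokinase found in most tissues, was at 39.5, 38.4, 60.8 and 40.8 RPM in Ly6C+ and 17.5, 18.2 and 34.8 RPM in Ly6Cint cells (log2 ratio -0.95, SE 0.23, adjusted p = 0.00329). Tkt (-0.87), Hk2 (-0.82), G6pdx (-0.67), Pgls (-0.61), Gpi1 (-0.58) and Pkm (-0.56) complete the falls. Of the 8 Ly6C- monocyte markers 8 rose and of the 6 Ly6C+ markers 5 fell over this step, while erythroid genes (3 of 10 tested, 0 called) summed to 49.3 to 651 RPM in Ly6C+ and 15.03 to 1447 RPM in Ly6Cint libraries; their part was not tested.

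Upwards, Slc16a3 went from 83.5, 98.3, 130.3 and 63.6 to 156, 147 and 175 RPM (log2 ratio 0.80, SE 0.23, adjusted p = 0.0124). Eno1 went from 39.5, 31.5, 15.8 and 16.8 to 46.7, 51.6 and 67.5 RPM (log2 ratio 1.15, SE 0.34, adjusted p = 0.0118). Pdha1 went from 64.3, 55.3, 42.3 and 44.3 to 86.8, 73.8 and 93.3 RPM (log2 ratio 0.72, SE 0.16, adjusted p = 0.00198). Groups did not overlap for any of these genes, and the limit on shared reads given above applies to Eno1. Blood Ly6C+ replicate 3 was the highest library for Hk1, Hk2 and Pkm; without it the calls of Hk2 (-0.49), Pkm (-0.43) and Gpi1 (-0.44) were lost. The same calls were lost without Ly6Cint replicate 1 (-0.70, -0.44 and -0.42), and those of Hk2 (-0.79), Slc16a3 (0.73) and Eno1 (1.00) without Ly6Cint replicate 3. With the 2 groups fitted alone the members called were 1 higher and 7 lower. Of the 15 calls, 6 held in every alternative: Aldoa, Hk3, Ldhb, Pgd, Taldo1 and Tkt. In the 10 alternatives other than leaving out a library, Pkm and Gpi1 lost their calls in 5 each and Slc16a3 in 2. Hk1, Pdha1 and Eno1 lost theirs in 1 each.

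Few members differed further between Ly6Cint and Ly6C- blood cells: 4 of 33 rose (7.25% of all genes) and 0 fell (1.62%), with medians of 0.22 and 0.20. At an unadjusted p under 0.05, 2 members were lower, and 0 by edgeR. Pfkfb3, the inducible maker of fructose 2,6-bisphosphate, stood at 10.9, 13.2 and 22.97 RPM in Ly6Cint and 26.1, 34.1 and 48.05 RPM in Ly6C- cells (log2 ratio 1.18, SE 0.32, adjusted p = 0.0223), and Pfkp, the platelet-type phosphofructokinase, at 28.4, 23.3 and 29.2 RPM in Ly6Cint and 41.1, 57.8 and 50.7 RPM in Ly6C- cells (log2 ratio 0.86, SE 0.19, adjusted p = 0.00745). Hk3 (0.93) and Tpi1 (0.73) were also called. None of the 4 calls held without every single library: that of Pfkp was lost without Ly6C- replicate 2 (0.75), those of Pfkfb3 (0.95 to 1.20) and Tpi1 (0.55 to 0.74) without Ly6Cint replicate 1 or 2 or Ly6C- replicate 2 or 3, and that of Hk3 (0.69 to 0.98) without Ly6Cint replicate 1 or 3 or Ly6C- replicate 2 or 3. Quantile scaling gave 1 member higher and 1 lower, scaling to the listed genes 2 and 1, and the 2 groups alone 0.

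Over the whole step from Ly6C+ to Ly6C- cells in 7-week blood, 8 members were lower (10.5% of all genes) and 4 higher (9.86%), with medians of -0.12 and 0.00. Ldhb fell furthest, to 6.37, 3.21 and 4.004 RPM in the 3 Ly6C- libraries (log2 ratio -2.50, SE 0.28, adjusted p = 6.77e-08). Slc16a3 reached 151, 223 and 269.6 RPM (log2 ratio 1.19, SE 0.23, adjusted p = 0.000388) and Aldoc, the brain aldolase, 4.63, 3.86 and 6.01 RPM from 0, 2.305, 1.76 and 0 RPM in Ly6C+ cells (log2 ratio 1.73, SE 0.48, adjusted p = 0.0093). Aldoc was at or below 3 reads (1.29 to 2.64 RPM) in every Ly6C+ library. Its call was lost in 1 of 9 alternatives other than leaving out a library. Pdha1 (0.86) and Ldha (0.74) rose too. Pgd (-1.10), Pgls (-1.01), Taldo1 (-0.96), Hk3 (-0.73), Hk1 (-0.71), Aldoa (-0.64) and Gpi1 (-0.57) were lower. This comparison shares its libraries with the 2 before it. Calls lost without 1 library were Ldha (0.55, Ly6C- replicate 3), Hk1 (-0.56 and -0.42, Ly6C+ replicate 3 or Ly6C- replicate 1), Aldoa (-0.54 and -0.39, the same), Gpi1 (-0.43, -0.46 and -0.54, the same or Ly6C- replicate 2) and Hk3 (-0.51 to -0.74, Ly6C+ replicate 2 or 3 or Ly6C- replicate 1 or 3).

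The step from Ly6C+ to Ly6Cint could be read again in 16-week wild-type blood and in the blood of transfer hosts, and Slc16a3 was the 1 member called in each. In wild-type cells 1 member was higher (2.10% of all genes) and 0 lower (2.20%; 1 at an unadjusted p under 0.05, 0 by edgeR). Slc16a3 stood at 142 and 144 RPM in Ly6C+, 621 and 424 RPM in Ly6Cint and 407 and 332 RPM in Ly6C- cells (Ly6Cint against Ly6C+: log2 ratio 1.83, SE 0.27, adjusted p = 0.00102), a call that held in all 14 alternatives. Of the 12 members that fell at 7 weeks, 7 had the same sign in the 16-week cells and 5 (Hk1, Hk2, Pkm, G6pdx and Tkt) the opposite one. The share of the same sign over all genes that fell at 7 weeks was not counted. Ldhb was at 29.5 and 40.5 RPM in Ly6C+, 9.81 and 18.9 RPM in Ly6Cint and 5.001 and 8.22 RPM in Ly6C- cells, with no overlap from one to the next, but did not pass the test (Ly6Cint against Ly6C+: log2 ratio -1.28, SE 0.47, adjusted p = 0.166). From Ly6Cint to Ly6C- no member was called, where 0.448% of all genes were, and 2 were lower at an unadjusted p under 0.05 and 0 by edgeR.

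In host blood, Slc16a3 was at 95.1 and 86.8 in Ly6C+, 244 and 327 in Ly6Cint and 181 and 232 in Ly6C- cells, per 1000000 of the listed total (Ly6Cint against Ly6C+: log2 ratio 1.63, SE 0.36, adjusted p = 0.0196). That was the 1 member higher (0.744% of all genes), and 0 were lower (0.413%; 2 at an unadjusted p under 0.05). The call was lost without Ly6Cint replicate B (1.42) or Ly6C+ replicate A (1.69) or B (1.56). Host Ldhb was 30.7 and 33.7 in Ly6C+, 11.8 and 12.7 in Ly6Cint and 4.82 and 6.57 in Ly6C- cells of blood. In spleen it was 16.6 and 18.4 in Ly6C+, 3.94 and 7.01 in Ly6Cint and 4.82 and 2.63 in Ly6C- cells. Ly6C+ and Ly6Cint libraries do not overlap in either tissue, but the difference was not called (log2 ratio -1.32, adjusted p = 0.902 in blood, and -1.56, adjusted p = 1 in spleen). No member was called between host spleen Ly6Cint and Ly6C+ cells (0.562% of all genes in either direction; 2 members higher at an unadjusted p under 0.05), spleen Ly6C- and Ly6Cint cells (0.215%; 2 higher), blood Ly6C- and Ly6Cint cells (0.107%; 1 lower), or spleen and blood Ly6C+ cells (0.0909%; 0 in either direction). These 0 counts are from limma, since whole reads were not recovered for the transfer table.

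Ly6C- cells of the marrow differed from marrow Ly6C+ cells in most members: 19 of 33 were lower (29.1% of all genes) and 5 higher (11.0%), with medians of -0.80 and -0.28. The pentose phosphate genes fell as a whole, 7 of 7, with all 3 hexokinases, and the rises were Pfkfb3, Pfkfb4, Pdk1, Pfkl and Slc16a3. Ldhb went from 29.3, 26.1 and 26.1 RPM in Ly6C+ to 6.97, 7.19, 3.51 and 6.67 RPM in Ly6C- cells (log2 ratio -2.03, SE 0.28, adjusted p = 8.1e-07). Pgk1, a kinase that makes ATP in glycolysis, fell from 33.97, 38.9 and 40.6 to 13.9, 8.49, 12.3 and 6.67 RPM (log2 ratio -1.82, SE 0.24, adjusted p = 4.91e-07) and Pgd from 278, 325 and 368 to 102, 144, 107 and 109 RPM (log2 ratio -1.49, SE 0.17, adjusted p = 5.89e-08). Hk2, the insulin- and hypoxia-responsive hexokinase, was at 84.2, 75.4 and 44.9 RPM in Ly6C+ and 26.4, 21.6, 28.7 and 17.8 RPM in Ly6C- cells (log2 ratio -1.46, SE 0.28, adjusted p = 0.00013), and Hk1 at 50.95, 51.7 and 54.4 RPM and 24.4, 16.99, 19.3 and 20.02 RPM (log2 ratio -1.34, SE 0.23, adjusted p = 2.6e-05). For each of these 5 the lowest Ly6C+ library exceeded the highest Ly6C- library. Of the members called here, Pgk1 (67.96%) and Pgam1 (41.48%) share the most 50-base windows, so the limit on reads given above applies to them. Pgam1 (-1.25), Hk3 (-1.24), Rpe (-1.24), G6pdx (-1.18), Rpia (-1.02), Aldoa (-0.95), Tkt (-0.95), Pkm (-0.94), Taldo1 (-0.89), Tpi1 (-0.82), Pgls (-0.80), Pfkp (-0.70), Gpi1 (-0.68) and Ldha (-0.57) were lower as well.

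Pfkfb3 rose from 20.1, 13.4 and 15.2 to 77.6, 41.8, 46.9 and 26.7 RPM (log2 ratio 1.43, SE 0.30, adjusted p = 0.000319), Pfkfb4 from 87.2, 78.4 and 75.4 to 219.9, 208, 179.8 and 172 RPM (log2 ratio 1.26, SE 0.20, adjusted p = 5.76e-06) and Slc16a3 from 77.2, 86.3 and 82.6 to 207, 157, 129 and 109 RPM (log2 ratio 0.83, SE 0.23, adjusted p = 0.00557). Pfkl had 16.98, 20.7 and 7.97 RPM in Ly6C+ and 27.9, 28.7, 26.4 and 24.5 RPM in Ly6C- cells (0.87) and Pdk1 10.04, 10.3 and 13.8 RPM and 28.4, 16.99, 25.2 and 15.6 RPM (0.83). All 5 were higher in every Ly6C- library than in any Ly6C+ library. In these 2 groups the cell-cycle list was lower in 20 of 20 genes (median -4.55) and erythroid genes (2 of 3 tested called higher) summed to 718 to 1850 RPM in Ly6C- against 3.09 to 180 RPM in Ly6C+ cells; their part was not tested. Of the 24 calls, 20 held in every alternative; Ldha was lost without Ly6C+ replicate 3 or 4 or Ly6C- replicate 3 or 4 (-0.51 to -0.54), and Pfkl without Ly6C+ replicate 4 (0.49), while Gpi1 and Pfkp were lost with edgeR.

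Compared with blood Ly6C- cells, marrow Ly6C- cells were lower in Pgk1 (17.95, 19.3 and 27.4 RPM in blood, 13.9, 8.49, 12.3 and 6.67 RPM in marrow, log2 ratio -1.02, SE 0.24, adjusted p = 0.0182), Pfkp (-0.78) and Tkt (-0.79). These were 3 of 33 members (1.94% of all genes), and 0 were higher (0.598%; 0 at an unadjusted p under 0.05, 0 by edgeR). No call of the 3 held without every library: Pfkp was lost without blood replicate 2 (-0.67) or 3 (-0.76), Pgk1 without marrow replicate 2 or 4 or blood replicate 2 or 3 (-0.84 to -1.08), and Tkt without marrow replicate 2, 3 or 4 or blood replicate 2 or 3 (-0.59 to -0.83). The log2 ratio of Ly6C- to Ly6C+ cells was also compared between the 2 tissues, and it was lower in marrow than in blood for 8 members (14.3% of all genes) and higher for 1 (3.53%); with quantile scaling the counts were 8 and 3, with edgeR 7 and 2. The median of this difference was -0.51 for members and -0.28 for all genes. The 8 were Pgk1 (difference of log2 ratios -1.59, adjusted p = 0.00143), Pgam1 (-1.53), Rpe (-1.36), Ldha (-1.31), Tpi1 (-1.23), Pfkp (-1.18), Pdha1 (-1.05) and G6pdx (-0.83). Pgk1 and Pgam1 carry the limit on shared reads given above. For Ldha and Pdha1 the sign differed: Ldha was -0.57 in marrow and 0.74 in blood, Pdha1 -0.19 (not called) and 0.86. Pfkfb4 was the member with the opposite sign (1.38, adjusted p = 0.000724). It rose in marrow, by 1.26, and was at 161, 126, 272 and 154 RPM in blood Ly6C+ and 164, 137 and 174 RPM in blood Ly6C- cells, which overlap. The calls of G6pdx (-0.71 without blood Ly6C- replicate 3, -0.74 without marrow Ly6C+ replicate 4) and Pgam1 (-1.20 without blood Ly6C- replicate 3) were lost with 1 library left out. All 20 cell-cycle genes were lower by the same measure (median -3.35), and their part was not tested.

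Within isozyme families, shares were computed per kilobase and are given as the range over libraries. Ldhb made up 1.48 to 1.63% of lactate dehydrogenase RNA in 7-week MDP, 5.31 to 6.66% in cMoP, 9.53 to 11.8% in marrow Ly6C+ and 8.56 to 26.4% in blood Ly6C+ cells. It came back to 4.27 to 4.74% in Ly6Cint cells, 1.27 to 3.098% in blood Ly6C- cells and 2.34 to 4.53% in marrow Ly6C- cells. In the blood Ly6C+ libraries Ldha also varied, at 199.9, 181, 252 and 101 RPM. Hk3 was the largest hexokinase share in every 7-week group, 79.2% on average in cMoP and 50.01% in blood Ly6Cint cells. In 1 of the blood graft libraries of 24 h, replicate B, Hk2 took 83.1%, with Hk1 at 0 and 8109 genes above 0. Of the phosphofructokinases, Pfkl had 52.9% and Pfkp 31.7% in MDP, and Pfkp 67.4% in marrow Ly6C+ cells. Pfkfb4 took 41.0% of the Pfkfb3 and Pfkfb4 sum in MDP and 35.7% in cMoP but 87.3% in marrow Ly6C+ cells, and from 85.2 to 93.0% in the other 7-week monocyte groups.

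**Figure D3:**
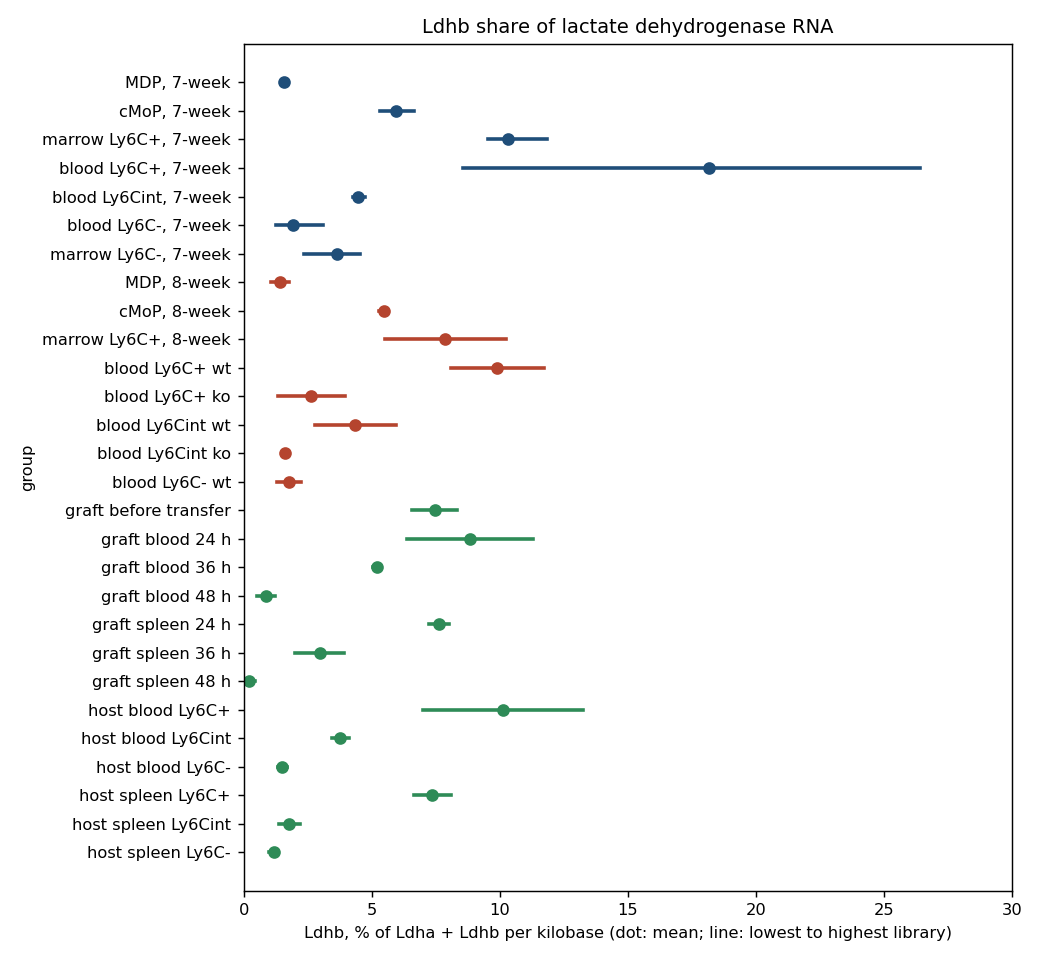
Share of Ldhb in the per-kilobase sum of Ldha and Ldhb (x axis, percent) in each of the 28 groups (y axis), with a dot at the mean and a line from the lowest to the highest library, in blue for the 7-week, red for the knockout and 8-week and green for the transfer table. Ly6C+ groups of wild-type mice and hosts lie between 5.51 and 26.4%, Ly6C- groups at or below 4.53%, and knockout Ly6C+ cells at 1.32 to 3.95%.

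The members were set beside 54 further genes of the same pathways, of which 42 were tested in the 7-week table. From MDP to cMoP, 4 of these were higher and 1 lower (5.20% and 4.05% of all genes). The counts were 4 and 11 from cMoP to marrow Ly6C+ cells (15.3% and 22.4%). They were 4 and 12 from blood Ly6C+ to Ly6Cint cells (7.95% and 19.2%), and 4 and 20 from marrow Ly6C+ to Ly6C- cells (11.0% and 29.1%). Eno3, the muscle enolase, moved furthest. It was at 22.8 ± 5.82 (SD, n = 4) RPM in 7-week blood Ly6C+, 317 ± 57.1 (SD, n = 3) RPM in Ly6Cint and 542 ± 49.3 (SD, n = 3) RPM in Ly6C- cells (Ly6C- against Ly6C+: log2 ratio 4.54, SE 0.23, adjusted p = 1.56e-14). In marrow it went from 7.57 ± 3.58 (SD, n = 3) RPM in Ly6C+ to 455 ± 64.5 (SD, n = 4) RPM in Ly6C- cells (log2 ratio 5.80, SE 0.23, adjusted p = 6.26e-17). The ubiquitous enolase Eno1, a member, was at 25.9, 55.3 and 37.1 RPM on average in the 3 blood populations, with the limit on its reads given above. Wild-type cells of 16 weeks held 63.4 ± 4.93 (SD, n = 2), 467 ± 69.5 (SD, n = 2) and 525 ± 94.8 (SD, n = 2) RPM of Eno3 in the order Ly6C+, Ly6Cint, Ly6C- (Ly6Cint against Ly6C+: log2 ratio 2.86, SE 0.34, adjusted p = 0.000225). From cMoP to marrow Ly6C+ cells the called genes with the smallest p were Slc2a6, a lysosomal hexose transporter (2.08), Pygl, glycogen phosphorylase (1.498), G6pc3, a glucose 6-phosphatase (-1.70), and Slc16a1 (MCT1), the monocarboxylate transporter related to Slc16a3 (-2.91). Pygl had already risen by 1.49 from MDP to cMoP.

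Among 24 regulators of the pathway, 23 of them tested, the 7-week step from cMoP to marrow Ly6C+ cells had 3 called higher and 3 lower. Of all genes 15.3% were higher and 22.4% lower over this step. Txnip, which restrains glucose uptake, was higher (log2 ratio 1.99, adjusted p = 1.41e-07), and Myc, an activator of glycolytic genes, lower (-3.54, adjusted p = 2.76e-07), as were Egln3, an oxygen-sensing hydroxylase (-3.29), and Trp53 (-1.55). In 8-week marrow Myc was lower by the same test (-4.55, adjusted p = 2.29e-07) and Txnip higher (2.35). Of 12 tested hypoxia targets outside glycolysis, 4 rose and 3 fell over this step at 7 weeks (15.3% and 22.4% of all genes). Vegfa fell (-3.09), while Ddit4 (2.01) and Ndrg1 (2.00) rose. From blood Ly6C+ to Ly6C- cells Ndrg1 fell (-4.22) and Ddit4 rose (2.19). Nfe2l2, an activator of pentose phosphate genes, rose there by 1.17. The part of these regulators and targets in the members' values was not tested.

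In knockout blood monocytes, 1 member was called in each population, both lower. Cebpb itself was at 749 ± 78.3 (SD, n = 2) RPM in wild-type and 85.999 ± 40.8 (SD, n = 2) RPM in knockout Ly6C+ cells (log2 ratio -3.19, SE 0.38, adjusted p = 0.000551), and at 1488 ± 348 (SD, n = 2) and 126 ± 83.9 (SD, n = 2) RPM in Ly6Cint cells (log2 ratio -3.70, SE 0.38, adjusted p = 4.82e-05), in the direction of the labels. In Ly6C+ cells Ldhb was at 29.5 and 40.5 RPM in the wild-type and 11.1 and 3.897 RPM in the knockout libraries (log2 ratio -2.21, SE 0.47, adjusted p = 0.03), a 4.67-fold difference of means. Both knockout libraries lie below both wild-type ones; wild-type Ly6C- cells held 5.001 and 8.22 RPM. Ldha was at 409 and 371 RPM in wild-type and 329 and 353 RPM in knockout Ly6C+ cells (log2 ratio -0.19, adjusted p = 0.832), so the Ldhb share went from 8.08 to 11.7% in wild-type to 1.32 to 3.95% in knockout cells. Ldhb was the 1 member lower (0.465% of all genes) and 0 higher (0.799%; 3 at an unadjusted p under 0.05, 0 by edgeR), with medians of 0.09 and 0.02; with quantile scaling 1 member was higher and 1 lower. The call was lost without 3 of the 4 libraries: without wild-type replicate I the log2 ratio was -2.43 (adjusted p = 0.139), without wild-type replicate II -1.99 (0.338) and without knockout replicate II -1.56 (0.356), and without the filter on low values it had an adjusted p of 0.0619.

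In Ly6Cint cells Slc16a3 was at 621 and 424 RPM in the wild-type and 214 and 207 RPM in the knockout libraries (log2 ratio -1.28, SE 0.27, adjusted p = 0.00987). The groups do not overlap, and knockout Ly6C+ cells held 169 and 122 RPM. That was 1 member lower (2.70% of all genes) and 0 higher (3.63%; 1 at an unadjusted p under 0.05, 1 by edgeR, which called 2 lower), with medians of -0.32 and 0.07. The call was lost without wild-type replicate I (-1.01, adjusted p = 0.0888) or knockout replicate I (-1.31, 0.0620) or II (-1.26, 0.0933). Eno3 fell with it, from 467 ± 69.5 (SD, n = 2) to 104 ± 33.2 (SD, n = 2) RPM (log2 ratio -2.19, SE 0.34, adjusted p = 0.00124), one of 4 other pathway genes called lower with 0 higher, beside Pygl (-1.18), Pck2 (-1.21) and Slc2a6 (-1.19). Ldhb was at 9.81 and 18.9 RPM in wild-type and 4.76 and 4.56 RPM in knockout Ly6Cint cells and was not called (log2 ratio -1.37, adjusted p = 0.105). Myc was higher in the knockout in both populations (1.79 and 2.15). No member was called for a difference of the knockout effect between the populations, where 0.00878% of all genes were, and 2 were lower at an unadjusted p under 0.05 and 0 by edgeR. The knockout Ly6Cint libraries also held less of the 8 Ly6C- monocyte markers (5 of 8 called lower), with summed levels of 1645 to 2003 RPM against 5556 to 6388, and more of the 10 tissue macrophage markers (6 of 8 tested called higher), 477 to 935 against 90.2 to 93.0 RPM. In Ly6C+ cells the macrophage markers summed to 195 to 287 RPM in knockout and 39.2 to 51.1 RPM in wild-type libraries (4 of 8 higher). The part of these markers in the values of Ldhb, Slc16a3 and Eno3 was not tested.

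**Figure D4:**
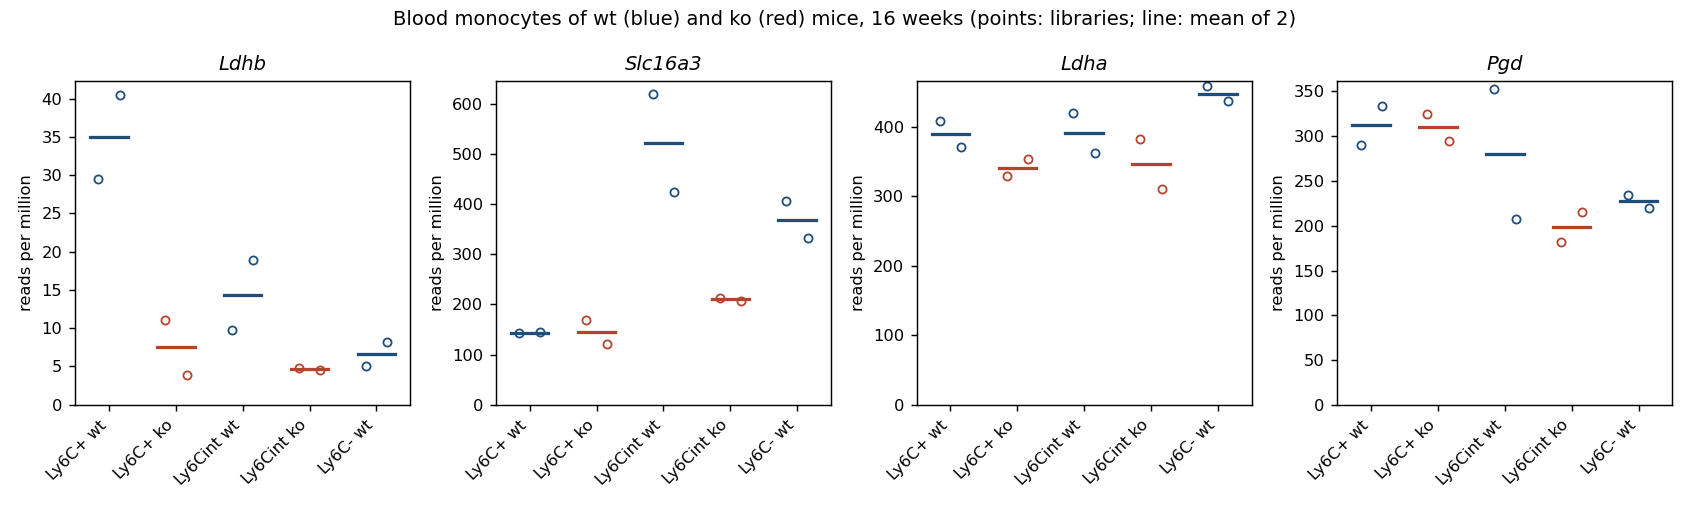
RPM (y axes) of Ldhb, Slc16a3, Ldha and Pgd in wild-type (blue) and knockout (red) blood monocytes of 16-week mice by population (x axes), with a point per library and a line at the mean of 2. Ldhb is at 29.5 and 40.5 in wild-type Ly6C+ cells and 11.1 and 3.897 in knockout ones, and Slc16a3 at 621 and 424 in wild-type Ly6Cint cells and 214 and 207 in knockout ones.

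In blood 24 h after transfer, Hk3, Hk2, G6pdx and Aldoa were lower and Slc16a3 higher than in marrow Ly6C+ monocytes before transfer. These were 4 of 32 members lower (10.3% of all genes) and 1 higher (2.98%), shares near those of all genes, with medians of -0.26 for members and -0.53 for all genes. Values here are per 1000000 of the listed total. The 24 h blood grafts had 8278 and 8109 genes above 0, against 11719 and 11574 before transfer. The correlation r of log2 values between the replicates was 0.885, against 0.99 before transfer. The part of this lower detection in the values was not tested. Hk3 fell from 193 and 215 to 46.02 and 6.57 (log2 ratio -3.44, SE 0.59, adjusted p = 0.000391), Hk2 from 161 and 178 to 31.1 and 55.2 (log2 ratio -2.01, SE 0.59, adjusted p = 0.0282) and G6pdx from 521 and 475 to 303 and 221 (log2 ratio -0.94, SE 0.24, adjusted p = 0.0109). Slc16a3 rose from 92.9 and 79.8 to 234 and 178 (log2 ratio 1.24, SE 0.36, adjusted p = 0.024), and Aldoa was lower (-0.75, adjusted p = 0.0496). In later blood grafts Hk3 was 114 and 161 at 36 h and 81.1 and 49.96 at 48 h, and the difference between 48 and 24 h was not called (log2 ratio 1.78, adjusted p = 0.0697). In spleen after 24 h, 1 member was lower (2.91% of all genes) and 0 higher (2.89%; 2 at an unadjusted p under 0.05). G6pdx was the one, at 354 and 217 (log2 ratio -0.84, SE 0.24, adjusted p = 0.0376). Quantile scaling gave 1 higher and 2 lower members there. Slc16a3 was 176 and 138 there and not called (log2 ratio 0.85, adjusted p = 0.219). No member was called between spleen and blood at 24 h (4.59% of all genes; 1 higher at an unadjusted p under 0.05). The calls in blood were lost without 1 library in 4 of 5 cases, Aldoa (-0.59 to -0.92) without any of the 4, Hk2 (-1.60 to -2.08) and Slc16a3 (1.04 to 1.34) without any but graft blood replicate B, and G6pdx (-0.72 to -1.01) without any but graft blood replicate AC. That of Hk3 was kept, at -2.12 without graft blood replicate B and -4.75 without replicate AC, but was lost with the 2 groups fitted alone (adjusted p = 0.131). The call of G6pdx in spleen was lost without either library before transfer (-0.77 and -0.91) or spleen replicate C (-0.49). Erythroid genes (2 of 6 tested called higher) summed to 2032 to 4386 in the 24 h blood grafts against 13.6 to 24.98 before transfer and 73.6 to 331 in the 24 h spleen grafts, and 17 of 20 cell-cycle genes fell (median -5.03); their part was not tested.

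Ldhb fell in the grafts between 24 and 48 h, in blood and in spleen. It was 32.4 and 22.8 before transfer; 12.3 and 33.7, 17.5 and 19.7, and 3.51 and 1.75 in blood at 24, 36 and 48 h; and 24.5 and 21.03, 10.96 and 5.698, and 0 and 1.31 in spleen at those times. The 48 h values are below every earlier value in the same tissue. Between 24 and 48 h it was the only member called in blood (log2 ratio -2.61, SE 0.80, adjusted p = 0.046; 1 of 32 lower, 3.67% of all genes, 0 higher, 4.42%) and in spleen (log2 ratio -3.96, SE 0.80, adjusted p = 0.0099; 1 lower, 2.10%, 0 higher, 0.314%). At an unadjusted p under 0.05, 2 members were higher in blood and 1 in spleen. Host Ly6C- cells held 4.82 and 6.57 in blood and 4.82 and 2.63 in spleen. In the blood grafts 8278 and 8109 genes were above 0 at 24 h and 8761 and 7734 at 48 h. In the spleen grafts these were 10970 and 9354 at 24 h and 8396 and 8614 at 48 h. The part of gene detection in the Ldhb values was not tested. In blood the call was lost without 24 h replicate B (-1.91) or 48 h replicate B (-2.25) and in 5 other alternatives, and in spleen without 24 h replicate C (-4.07) and with quantile scaling, array weights or the 2 groups alone. Eno3 rose after transfer, from 15.6 ± 0.93 (SD, n = 2) before transfer to 715 ± 122 (SD, n = 2), 899 ± 195 (SD, n = 2) and 1325 ± 231 (SD, n = 2) in blood (24 h against before: log2 ratio 5.42, SE 0.33, adjusted p = 3.08e-10), and to 516 ± 56.4 (SD, n = 2) in spleen at 24 h (log2 ratio 4.96, SE 0.33, adjusted p = 1.77e-09). Ly6c2 fell from 4223 before transfer to 634 at 24 h and 47.98 at 48 h in blood. In the spleen grafts of 36 h the tissue macrophage list summed to 1207 to 4189 against 78.01 to 99.04 at 48 h, which stands beside the 36 h spleen values.

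**Figure D5:**
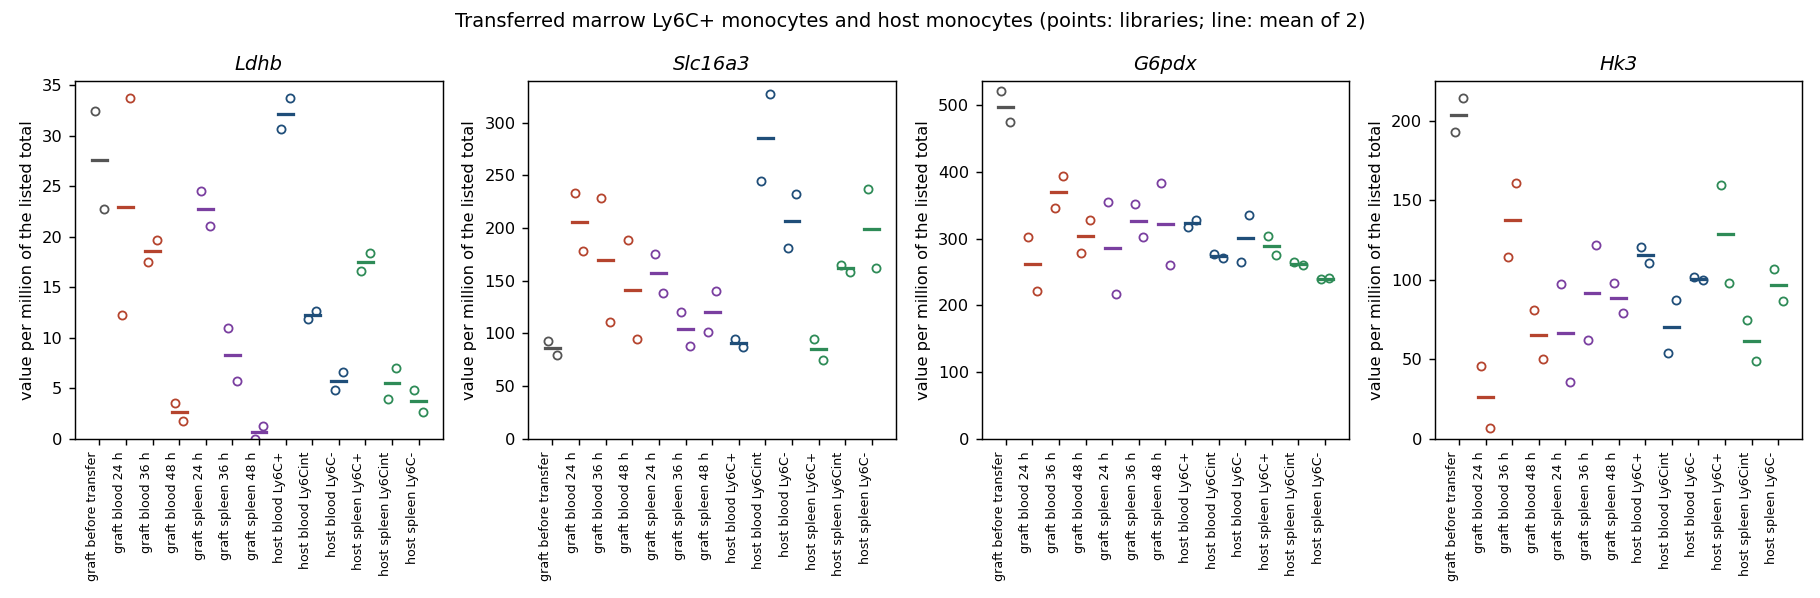
Values per 1000000 of the listed total (y axes) for Ldhb, Slc16a3, G6pdx and Hk3 in grafts before and after transfer (grey, red for blood, purple for spleen) and host monocytes (blue for blood, green for spleen) (x axes), with a point per library and a line at the mean of 2. Ldhb is at 1.75 to 3.51 in blood grafts and 0 to 1.31 in spleen grafts at 48 h, after 12.3 to 33.7 at 24 h, and Hk3 is at 204 on average before transfer and 26.3 in the 24 h blood grafts.

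Across the 24 comparisons of 2 groups, each member but Eno2 was called at least once. Slc16a3 was higher in 9 and lower in 1, Pfkfb4 higher in 4 and lower in 0, and Eno1 higher in 2. Ldhb was higher in 2 and lower in 6, Hk3 higher in 2 and lower in 6, Pgls lower in 6, Tkt lower in 5 and Hk1 lower in 4. G6pdx was higher in 4 and lower in 4. Slc2a1 and Aldoc were each called higher once, and Pfkm, Pdhb and Gapdh lower once. Several of these comparisons share libraries, so the counts are not independent of each other.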

How the data were processed

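RNA of sorted monocytes and progenitors, captured on oligo dT beads per the labels' protocols, was sequenced in 67 libraries. Per the submitters' processing notes, bcl2fastq, HISAT 0.1.5, SAMtools and HOMER were used with build mm9; the annotation and counting options are not given in the sources used here. The authors deposited HOMER-normalised signal in the 7-week and knockout tables, whose steps gave back whole read counts, except in 1 library (7-week blood Ly6Cint, replicate 2), where the step is too close to a power of 10 for the check to tell and whose RPM and reads are less certain; RPM here rests on an assumed library total of 10000000, which no label states. The transfer table is a score deposited as rounded values of a common total, divided here by its sum to values per 1000000, and its depth is unknown.

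Genes at 2 RPM or more in at least 3 (7-week) or 2 libraries (other tables) were tested, 11373, 11388 and 12096 in the 3 tables. All libraries of a table entered 1 limma 3.58.1 trend fit (R 4.3.3) on log2(RPM + 1) with 1 mean per group, with Benjamini-Hochberg adjustment over all genes tested; p-values are two-sided. edgeR 4.0.16 (quasi-likelihood, TMM) on the recovered counts was an alternative, beside other pseudocounts, filters and scalings, array weights, fits of the compared groups alone, a replicate block and leaving out each library. The fits were tested on simulated data. The 34 members, the lists and the tests were chosen with earlier results of these data known. All members may be named; up to 6 called per direction with the largest change have values per library, and other genes are named only when called, up to 4 per list and comparison by smallest p, except Cebpb, Ly6c2 and Csf1r. Transcript lengths and shared 50-base windows came from GENCODE M21 and promoters from RefSeq on GRCm38.p6, another build than the files', so they serve only for lengths and sequence.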

Additional observations from a re-analysis of the deposited data

Results flagged for a closer look

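In groups of 4 libraries, 10 of 132 combinations of member and group had a highest or lowest library whose gap to the next, relative to the range, was over Dixon's 95% critical value; about 1 in 20 would be reached by chance. Blood Ly6C+ replicate 3 was high for 4 members, Hk1 (60.752 RPM), Hk2 (95.09), Pfkp (42.262) and Pkm (735.186). MDP replicate 1 was low for Hk2 (29.544) and high for Pgam1 (69.526), and MDP replicate 4 was low for Pgls (477.295), where cMoP replicate 4 was high (432.362). In marrow Ly6C- cells, Ldhb was low in replicate 3 (3.514) and Fbp1 high in replicate 2 (1.96, near the limit of 3 reads).

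For 9 members the Ly6C- to Ly6C+ log2 ratio differed between marrow and blood by the interaction term of limma (adjusted p under 0.05). It was lower in marrow for Pgk1 (-1.5938), Pgam1 (-1.5338), Rpe (-1.3564), Ldha (-1.306), Tpi1 (-1.2286), Pfkp (-1.1811), Pdha1 (-1.0517) and G6pdx (-0.8288), and higher for Pfkfb4 (1.3822). All 20 cell-cycle genes were lower by the same measure. The limit on shared reads applies to Pgk1 and Pgam1.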

How the results depend on the processing

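No called difference of a member changed sign in any alternative run. The counts of members called stayed within 1.5 times in every alternative from cMoP to marrow Ly6C+ cells at 7 weeks, from marrow to blood Ly6C+ cells and from marrow Ly6C+ to Ly6C- cells. Elsewhere they moved as follows, with the reported count first and the range over libraries left out in turn last. At 7 weeks, cMoP against MDP had 11, with array weights 17, with the compared groups alone 19, and 6 to 9; blood Ly6Cint against Ly6C+ 15, and alone 8; Ly6C- against Ly6Cint 4, with quantile scaling 2, edgeR 1, alone 0, and 0 to 7; Ly6C- against Ly6C+ in blood 12, and alone 5. Ly6C- cells of marrow against blood had 3, alone 0, and 0 to 4, and the difference between tissues 9, with array weights 15. In the 8-week marrow, cMoP against MDP had 6, with pseudocount 0.25 3, array weights 3, alone 0, and 0 to 4, and Ly6C+ against cMoP 16, alone 9, and 8 to 15. Knockout Ly6C+ cells had 1, without the filter 0, with quantile scaling 2, array weights 3, alone 4, and 0 to 1. Knockout Ly6Cint cells had 1, with pseudocount 4 or the stricter filter 2, edgeR 3, alone 2, and 0 to 4. Wild-type Ly6Cint against Ly6C+ had 1, with edgeR 2, and 1 to 4. In the transfer table, 24 h blood grafts had 5, with array weights 3, and 1 to 4; 24 h spleen grafts 1, with quantile scaling 3, array weights 6, alone 0, and 0 to 5. From 24 to 48 h, blood had 1, with pseudocount 0.25, quantile scaling, array weights or alone 0, and 0 to 3, and spleen 1, with quantile scaling, array weights or alone 0, and 0 to 3. Spleen against blood at 24 h had 0, and 0 to 1; host blood Ly6Cint against Ly6C+ 1, alone 0, and 0 to 1; host spleen Ly6Cint against Ly6C+ 0, with array weights 1. The cause of these moves was not tested, apart from the fewer libraries in a fit without 1 of them or of the compared groups alone.

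The replicate numbers did not pair the libraries by the correlation of their deviations, and the replicate block moved 1 count by over 1.5 times, that of the blood grafts from 24 to 48 h, to 0. Quantile scaling moved the median log2 ratio of all genes from -0.53 to 0.03 in the 24 h blood grafts, from -0.28 to 0.02 between marrow Ly6C- and Ly6C+ cells and from -0.19 to 0.06 between blood and marrow Ly6C+ cells. The depth set a limit of 0.439 to 3.34 RPM at 3 reads, and the group means of Eno2 were at most 0.537 RPM in the 7-week and knockout tables.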
